A study of Bos taurus with 9 samples.

Results

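The genes described here encode the nuclear part of the mitochondrial respiratory chain in bovine ear fibroblasts (BEFs) that were turned towards adipocyte-like cells (CiADCs) by chemicals. They were taken from the expression table by symbol: every row whose symbol began with NDUF, UQCR, ATP5, SDHA, SDHB, SDHC, SDHD, COX4I, COX5, COX6, COX7 or COX8, or was CYC1 or CYCS, was a member. This gave 108 of the 21512 rows, under 98 symbols, the other 10 rows being extra loci that carried the symbol of another member. RNA-seq was carried out on 3 samples of wild-type BEFs before induction (day 0, titled as controls and named AnEFs-0d in the table), on 3 samples of wild-type CiADCs after 3 days of induction (CiADCs-3d) and on 3 after 6 days (CiADCs-6d). The day 0 samples also carry the treatment label reprogramming, and they were taken as untreated BEFs from their titles. The induction medium was N2B27 with VPA (valproic acid, an inhibitor of histone deacetylases), TTNPB (a retinoic acid receptor agonist) and RepSox (an inhibitor of the type I TGF-beta receptor). BEFs were grown in DMEM with serum, and the day 6 samples preceded the change to a maintenance medium with insulin and rosiglitazone. No untreated sample of day 3 or day 6 was in the set, so the compounds, the medium and the days in culture cannot be told apart. The labels do not say whether the 3 samples of a group came from separate animals or cultures, and p-values then measure the spread between these samples, which may be technical.

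The respiratory chain passes electrons from NADH through complex I, and from succinate through complex II, to ubiquinone, then through complex III and the mobile carrier cytochrome c to complex IV, which reduces oxygen. Complexes I, III and IV pump protons, and complex V, the ATP synthase, uses the proton gradient to make ATP. Most subunits are encoded in the nucleus and imported, a small core is encoded in mitochondrial DNA, and some complex IV subunits exist as paralogues that differ between tissues. In adipose tissue the chain serves lipid synthesis and oxidation, and in brown fat it drives heat production.

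Each sample held between 18509244 and 24071580 counts. The members took 0.574% ± 0.0117 of the counts in BEFs, 0.553% ± 0.0054 at day 3 and 0.542% ± 0.0281 at day 6 (SD, n = 3). Both CiADCs libraries numbered 1 stood apart from the other 2 of their group, with a chi-square per degree of freedom over all genes of 34.0 to 50.6 against them, compared with 13.5 to 15.1 between those others and 2.46 to 9.31 among BEFs. The summed level of 8 fibroblast markers was 61580 to 64330 CPM (counts scaled to library size) in BEFs, 22880 to 33840 at day 3 and 15720 to 20860 at day 6. The 8 adipocyte markers summed to 23.4 to 29.3, 36.9 to 49.5 and 23.5 to 26.6 CPM in the same order, so the markers of the cell type named in the labels were present at low levels. By edgeR's test at an adjusted p under 0.05, 4 of the 7 tested adipocyte markers were higher and 2 lower than in BEFs at each day. These are 57.1% and 28.6%, beside 30.9% and 29.1% of all tested genes at day 3 and 35.6% and 31.9% at day 6. Their median log2 fold change was 1.17 at day 3 and 0.635 at day 6. Among the 8 markers, ADIPOQ (adiponectin) was at 1.15, 4.86 and 3.97 CPM on average, and FABP4 (the fatty acid carrier of adipocytes) at 10.9, 5.34 and 0.863 CPM. Markers of cartilage (5 genes) summed to 332 to 339, 62.1 to 75.1 and 42.9 to 60.4 CPM, those of keratinocytes (6 genes) to 27.1 to 50.4, 25.3 to 35.9 and 42.9 to 51.8 CPM, those of endothelium (4 genes) to 10.7 to 15.5, 308 to 456 and 191 to 317 CPM, and those of blood cells (4 genes, PTPRC and HBB at 0) to 0.489 to 0.918, 2.6 to 5.96 and 4.30 to 9.64 CPM. These sums do not give the direction of every gene. By the same test, 2 of 4 tested cartilage genes were higher than in BEFs and 2 lower at each day. Of 4 tested keratinocyte genes, 2 were higher and 2 lower at day 3, and 1 was higher at day 6. The keratinocyte gene with the highest day 3 log2 fold change, 7.52, passed the filter on low counts only through the CiADCs samples. The keratinocyte counts of higher genes were thus partly set by the filter. Of 2 tested endothelial genes, 1 was higher at each day (log2 fold changes 5.57 and 4.98). The other was not called at day 3 (-0.663) and was lower at day 6 (-0.76). The part of these cell types in the results was not tested.

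Of the 108 members, 97 passed the filter on low counts and were tested. A gene was called when its adjusted p from edgeR's quasi-likelihood test was under 0.05. After 3 days, 15 of the 97 members were higher than in BEFs, 15.5% against 30.9% of all 14020 tested genes, and 18 were lower, 18.6% against 29.1% of all tested genes. After 6 days, 19 were higher, 19.6% against 35.6% of all tested genes, and 27 were lower, 27.8% against 31.9%. Most of these differences were small. The median log2 fold change over the members was -0.05 at day 3 and -0.07 at day 6, beside 0.01 and 0.03 over all tested genes. At day 3 the 95% interval of the fold change lay within 2-fold in either direction for 80 of the 97 members (82.5%), compared with 52.5% of all tested genes, and at day 6 for 77 members (79.4%), compared with 46.3%. With a change of at least 2-fold also required, 2 members were higher and 2 lower at day 3 (18.2% and 9.94% of all tested genes), and 4 were higher and 1 lower at day 6 (21.9% and 13.4%). In CPM, all 3 day 3 samples were above all BEFs samples for 22 members and below them for 29, compared with 35.1% and 35.4% of all tested genes, and at day 6 for 21 and 33 members, compared with 37.7% and 35% of all tested genes. The comparisons of day 3 and of day 6 share the BEFs samples. When each library was left out in turn, the calls of 6 of the 15 higher and 10 of the 18 lower members at day 3, and of 13 of the 19 higher and 19 of the 27 lower members at day 6, were kept in every case. The number of members higher at day 3 was 9 without BEFs replicate 1 and 7 without BEFs replicate 2. In bulk samples, fewer cells that express a gene and less RNA of it per cell cannot be told apart.

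**Figure D1:**
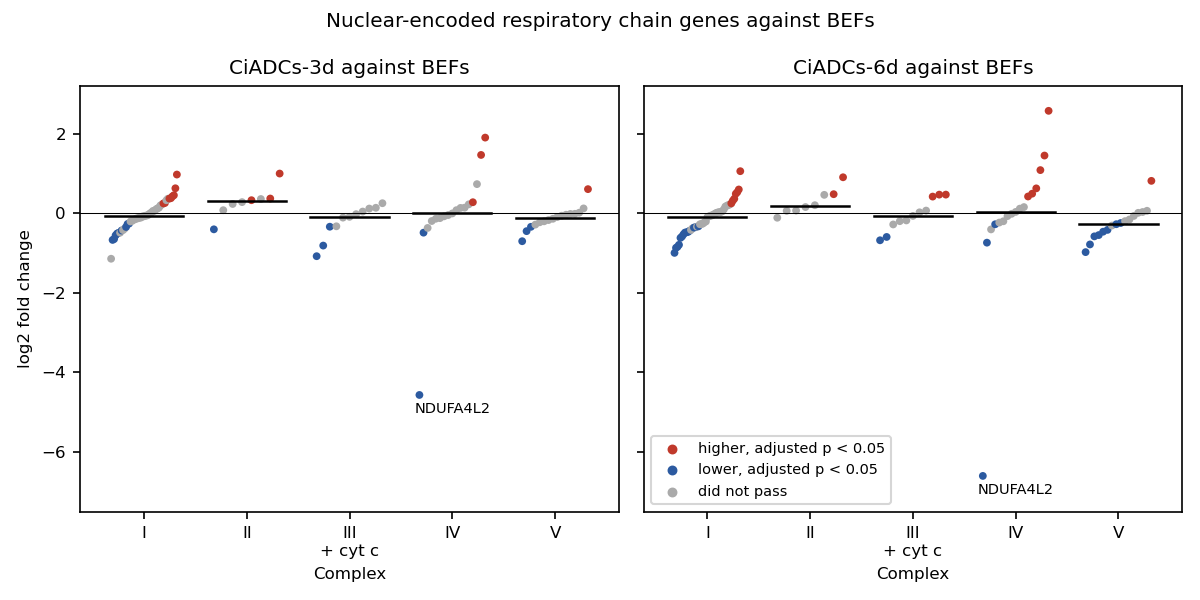
Each point is a tested member, grouped by complex on the horizontal axis, and the vertical axis gives its log2 fold change in CiADCs-3d (left) or CiADCs-6d (right) against BEFs. Black lines are medians and colours mark calls at an adjusted p under 0.05. NDUFA4L2 lies far below the other points, at -4.57 and -6.60, and the complex V points lie mostly below 0 at day 6.

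Complex I is the largest of the complexes, and 37 of its subunit genes were tested. At day 3, 7 were higher and 8 lower (18.9% and 21.6%, beside 30.9% and 29.1% of all tested genes), with a median log2 fold change of -0.06. At day 6, 5 were higher and 13 lower (13.5% and 35.1%, beside 35.6% and 31.9% of all tested genes), the median again being -0.06. These counts rested on single libraries. At day 3 the higher and lower subunits numbered 3 and 3 without BEFs replicate 1, 2 and 5 without BEFs replicate 2, 4 and 4 without BEFs replicate 3, 6 and 5 without CiADCs-3d replicate 1, 4 and 5 without CiADCs-3d replicate 2 and 4 and 3 without CiADCs-3d replicate 3. At day 6 the higher subunits numbered 1 without BEFs replicate 3 or CiADCs-6d replicate 3, 2 without BEFs replicate 2 or CiADCs-6d replicate 1, and 3 without BEFs replicate 1, while 9 to 14 were lower. No subunit of complex I changed by 2-fold at either day with an adjusted p under 0.05. Summed over its 37 subunit genes, complex I was at 1416 ± 37.8 CPM in BEFs, 1385 ± 37.9 at day 3 and 1282 ± 90.3 at day 6 (SD, n = 3).

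The nuclear core subunits of complex I carry the flavin and the iron-sulphur clusters, and they differed in direction. NDUFS1, the largest of these proteins and an iron-sulphur carrier of the NADH-oxidising module, was at 93.7, 88.8 and 91.0 CPM in BEFs, 74.7, 88.7 and 87.4 at day 3 and 59.4, 63.2 and 59.9 at day 6. Every day 6 sample was below every BEFs sample and below every day 3 sample. The log2 fold change of NDUFS1 against BEFs was -0.13 at day 3 (adjusted p = 0.266) and -0.58 at day 6 (SE 0.09, adjusted p = 0.000152).

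NDUFS3, a further core subunit of the module that binds ubiquinone, was at 39.4, 34.4 and 36.8 CPM in BEFs, 23.7, 25.9 and 25.6 at day 3 and 30.0, 17.1 and 16.7 at day 6. All CiADCs samples were below all BEFs samples, and the log2 fold change was -0.55 at day 3 (SE 0.19, adjusted p = 0.0235) and -0.79 at day 6 (SE 0.19, adjusted p = 0.00275). The day 3 call was lost without BEFs replicate 1 (adjusted p = 0.0755), BEFs replicate 3 (0.0541), CiADCs-3d replicate 1 (0.0714) or CiADCs-3d replicate 3 (0.0538). In the ARS-UCD2.0 annotation NDUFS3 overlaps KBTBD4, whose log2 fold changes were -0.55 and -0.62, and reads of the pair cannot be told apart because the strand of the libraries is not stated in the sources used here. NDUFS8, an iron-sulphur subunit, was at log2 fold changes of -0.34 (adjusted p = 0.0272) and -0.33 (adjusted p = 0.0298), and each call was lost in some of the leave-outs, with adjusted p up to 0.113 at day 3 (without CiADCs-3d replicate 1) and 0.0947 at day 6 (without CiADCs-6d replicate 2).

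Core subunits that were higher at day 6 were NDUFV1, NDUFV2 and NDUFS7. NDUFV2, an iron-sulphur partner of the NADH-binding subunit, was at 36.9, 36.8 and 31.7 CPM in BEFs, 65.8, 45.9 and 51.3 at day 3 and 42.9, 60.6 and 44.6 at day 6. Every CiADCs sample was above every BEFs sample. The log2 fold change was 0.63 at day 3 (SE 0.16, adjusted p = 0.00473) and 0.49 at day 6 (SE 0.16, adjusted p = 0.0162), and the day 6 call was lost without BEFs replicate 3 (adjusted p = 0.0683) or CiADCs-6d replicate 2 (0.0853). NDUFV1, which binds NADH and the flavin, had a log2 fold change of 0.32 at day 6 (SE 0.10, adjusted p = 0.0167), and NDUFS7, an iron-sulphur subunit next to ubiquinone, one of 0.37 (SE 0.14, adjusted p = 0.0304). These calls were lost in 4 leave-outs each, with adjusted p up to 0.103 for NDUFV1 (without BEFs replicate 2) and 0.149 for NDUFS7 (without BEFs replicate 2), and the CPM of NDUFS7 overlapped between the groups.

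Among the accessory subunits, NDUFA5 had the lowest fold change of the complex at day 6. It was at 7.97, 6.84 and 5.73 CPM in BEFs, 4.84, 3.93 and 4.34 at day 3 and 3.27, 4.48 and 2.49 at day 6, and all CiADCs samples were below all BEFs samples. Its log2 fold change was -0.65 at day 3 (SE 0.22, adjusted p = 0.0254) and -0.99 at day 6 (SE 0.23, adjusted p = 0.00203), the day 3 call being lost in 4 leave-outs with an adjusted p up to 0.105 (without BEFs replicate 1). The other accessory genes described here were chosen after their values were seen. NDUFA9, which helps to join the arms of the complex, fell from 42.8 to 46.5 CPM in BEFs to 25.8 to 35.3 at day 3 and 21.1 to 30.5 at day 6, with log2 fold changes of -0.51 (adjusted p = 0.0129) and -0.87 (adjusted p = 0.000342). Its day 3 call was lost without CiADCs-3d replicate 1 (adjusted p = 0.0624). NDUFC2, of the membrane arm, was at a log2 fold change of -0.62 at day 6 (SE 0.12, adjusted p = 0.000829), NDUFS6 at -0.49 and -0.48 (adjusted p = 0.00422 and 0.00419) and NDUFA10 at -0.47 at day 6 (adjusted p = 0.000785). NDUFV3, a small subunit beside the NADH-binding subunit, was higher at day 3, at 58.1 to 64.0 CPM compared with 42.7 to 51.2 in BEFs and 45.1 to 48.5 at day 6. Its log2 fold change was 0.38 at day 3 (SE 0.10, adjusted p = 0.00499) and -0.39 between day 6 and day 3 (SE 0.10, adjusted p = 0.0122).

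Of the 12 tested members that encode assembly or coupling factors, 3 were higher and 1 lower at day 3 (25% and 8.33%, beside 30.9% and 29.1% of all tested genes). At day 6, 4 were higher and 1 lower (33.3% and 8.33%, beside 35.6% and 31.9%). NDUFAF3, an early assembly factor of complex I, was at 22.5, 21.4 and 21.6 CPM in BEFs, 44.7, 41.3 and 42.7 at day 3 and 45.6, 40.6 and 50.3 at day 6. All CiADCs samples lay above all BEFs samples, and the log2 fold change was 0.97 at day 3 (SE 0.11, adjusted p = 6.58e-06) and 1.06 at day 6 (SE 0.11, adjusted p = 2.49e-06). The IMPDH2 gene, which overlaps NDUFAF3 in the annotation, had log2 fold changes of -1.51 and -1.30, the opposite direction. ATP5SL (DMAC2), a factor for the membrane arm of complex I in spite of its symbol, was chosen after its values were seen. It went from 14.8 to 16.6 CPM in BEFs to 8.77 to 10.6 at day 3 and 7.41 to 10.7 at day 6, with log2 fold changes of -0.67 (SE 0.16, adjusted p = 0.00288) and -0.84 (SE 0.16, adjusted p = 0.000487). NDUFAF2, a late assembly factor of complex I, had the lowest day 3 value of the complex, -1.14, with an SE of 0.60 and an adjusted p of 0.121.

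**Figure D2:**
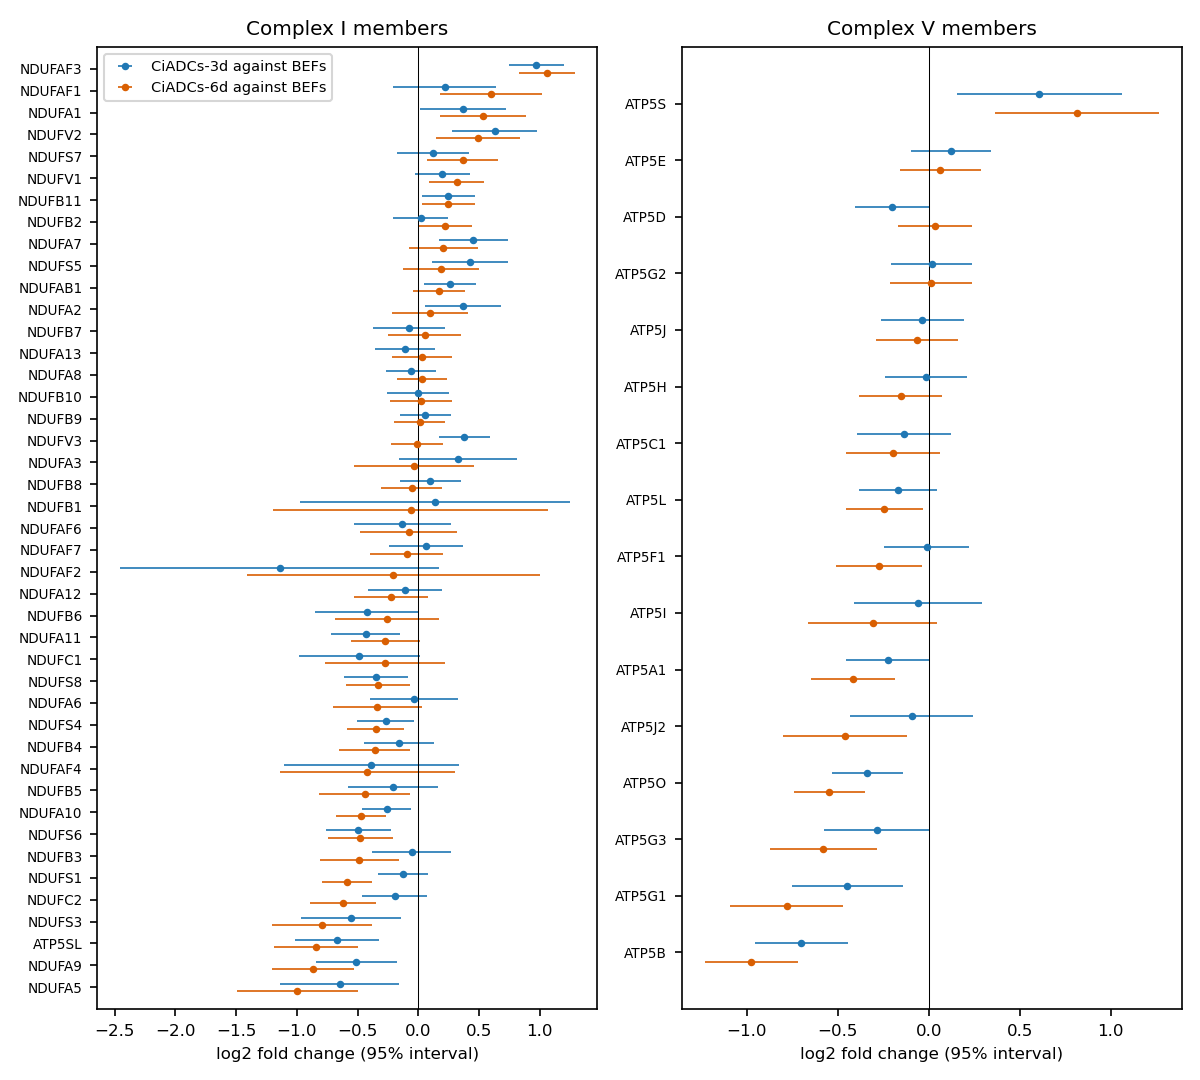
Log2 fold changes against BEFs (points) with 95% intervals (bars) are drawn for tested members of complex I (left, 1 member not shown) and complex V (right), extra loci left out, for day 3 in blue and day 6 in orange, ordered by the day 6 value. NDUFAF3 lies near 1 at both days at the top of complex I, and ATP5B lies at -0.70 and -0.98 at the bottom of complex V.

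Complex II, or succinate dehydrogenase, is shared with the tricarboxylic acid cycle, and each of its 4 subunits is encoded in the nucleus. SDHA, the flavoprotein that oxidises succinate, was at 304.1, 294.5 and 350.5 CPM in BEFs, 393.5, 428.4 and 405.9 at day 3 and 494.6, 370.5 and 459.1 at day 6. Its iron-sulphur partner SDHB was at 74.6, 74.6 and 80.7 CPM in BEFs, 55.5, 64.2 and 54.2 at day 3 and 64.9, 70.2 and 77.7 at day 6. SDHA was thus above all BEFs samples in every CiADCs sample, whereas SDHB was below them at day 3 and overlapped with them at day 6. The log2 fold change of SDHA was 0.37 at day 3 (SE 0.12, adjusted p = 0.0174) and 0.48 at day 6 (SE 0.12, adjusted p = 0.00339), and that of SDHB was -0.40 at day 3 (SE 0.10, adjusted p = 0.00523) and -0.11 at day 6 (adjusted p = 0.358). SDHC, a membrane anchor, was higher at day 3 (log2 fold change 0.33, adjusted p = 0.014), and the other anchor, SDHD, had values of 0.08 and 0.06 that passed no test. The day 3 calls were lost for SDHA without BEFs replicate 1 (adjusted p = 0.076), BEFs replicate 2 (0.0876) or CiADCs-3d replicate 2 (0.0561), and for SDHC without BEFs replicate 1 (0.0621).

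SDHAF2, which attaches the flavin to SDHA, was also higher. It was at 40.1, 40.1 and 34.5 CPM in BEFs, 80.3, 74.1 and 75 at day 3 and 78.1, 71.5 and 65.4 at day 6. BEFs and CiADCs did not overlap, and the log2 fold change was 1.00 at day 3 (SE 0.10, adjusted p = 4.59e-06) and 0.91 at day 6 (SE 0.10, adjusted p = 8.16e-06). Of the other assembly factors of complex II, SDHAF1 had log2 fold changes of 0.23 and 0.46, SDHAF3 of 0.28 and 0.07 and SDHAF4 of 0.36 and 0.16, and none of these passed the test.

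In complex III with cytochrome c, 10 genes were tested. At day 3, 2 were lower and none higher (20% and 0%, beside 29.1% and 30.9% of all tested genes), and at day 6, 3 were higher and 1 lower (30% and 10%, beside 35.6% and 31.9%). The day 3 count of lower genes was 1 without BEFs replicate 1, BEFs replicate 2, BEFs replicate 3, CiADCs-3d replicate 2 or CiADCs-3d replicate 3. At the same day 1 gene was higher without CiADCs-6d replicate 1 or CiADCs-6d replicate 2. At day 6, 2 genes were lower without CiADCs-6d replicate 1. Over the same 10 genes the summed level was 572 ± 18.9 CPM in BEFs, 598.0 ± 3.82 at day 3 and 600.0 ± 33.8 at day 6 (SD, n = 3). UQCRC1, a core protein of the matrix side, was at 182.7, 181.9 and 208.5 CPM in BEFs, 222.9, 232.1 and 228.3 at day 3 and 223.0, 165.6 and 194.5 at day 6. Its day 3 samples were above all BEFs samples, yet neither the log2 fold change of 0.25 at day 3 (SE 0.11, adjusted p = 0.0738) nor that of 0.02 at day 6 (SE 0.11, adjusted p = 0.86) passed the test. The genes of the redox subunits, CYC1 (cytochrome c1) and UQCRFS1 (the Rieske iron-sulphur protein), differed by -0.11 and -0.09 at day 3 and by 0.07 and -0.06 at day 6 on the log2 scale, without passing the test, and their 95% intervals lay within 2-fold.

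The small subunits of complex III moved in both directions. UQCR11, which lies at the edge of the complex, was at 12.2, 10.6 and 10.8 CPM in BEFs, 6.38, 6.51 and 6.30 at day 3 and 6.27, 7.0 and 7.80 at day 6. It was below all BEFs samples in every CiADCs sample, with log2 fold changes of -0.81 at day 3 (SE 0.15, adjusted p = 0.000424) and -0.68 at day 6 (SE 0.14, adjusted p = 0.00122). UQCR10, which touches cytochrome c1, was at 42.4, 41.5 and 41.2 CPM in BEFs, 45.1, 47.0 and 43.8 at day 3 and 56.8, 52.9 and 63.7 at day 6. Its log2 fold change was 0.12 at day 3 (adjusted p = 0.304) and 0.47 at day 6 (SE 0.10, adjusted p = 0.000938). UQCRH, the hinge protein between cytochrome c1 and cytochrome c, was chosen after its values were seen and had log2 fold changes of 0.14 (adjusted p = 0.225) and 0.42 (SE 0.10, adjusted p = 0.00185). It overlaps LRRC41 in the annotation, which had log2 fold changes of 0.40 and 0.52.

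CYCS, cytochrome c itself, was at 25.9, 27.4 and 25.5 CPM in BEFs, 29.0, 23.6 and 25.1 at day 3 and 29.8, 38.1 and 41.4 at day 6. It overlapped between BEFs and day 3 (log2 fold change -0.02, adjusted p = 0.901) and lay above BEFs in every day 6 sample (0.47, SE 0.13, adjusted p = 0.00736). A further locus with the symbol CYCS, under another gene number, was at 28.7, 27.1 and 24.3 CPM in BEFs, 17.6, 9.95 and 10.5 at day 3 and 17.4, 17.8 and 17.9 at day 6, and was lower at both days (log2 fold changes -1.08 and -0.59, adjusted p = 0.000338 and 0.0125). It took 50.4%, 32.3% and 32.9% of the counts of both CYCS rows in BEFs, CiADCs-3d and CiADCs-6d. Reads from such near-copies can be split between rows by the counting, so both CYCS values are uncertain. Summed over both rows, the level was 53.0 ± 2.68 CPM in BEFs, 38.6 ± 6.96 at day 3 and 54.1 ± 6.25 at day 6 (SD, n = 3). The sums of BEFs and day 6 differed by less than the spread between samples, and no test was run on them.

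Complex IV, cytochrome c oxidase, held the largest changes of the whole set. Of its 15 tested subunit genes, 3 were higher and 2 lower at day 3 (20% and 13.3%, beside 30.9% and 29.1% of all tested genes). At day 6, 6 were higher and 3 lower (40% and 20%, beside 35.6% and 31.9%). Without CiADCs-6d replicate 1, 5 were lower at day 6. Among the subunits without a tissue isoform expressed here, COX6C, chosen after its values were seen, was at 25.4, 26.4 and 24.9 CPM in BEFs, 58.1, 73.8 and 80.1 at day 3 and 59.6, 57.4 and 45.9 at day 6. The groups of BEFs and CiADCs did not overlap, and the log2 fold change was 1.47 at day 3 (SE 0.14, adjusted p = 1.84e-06) and 1.09 at day 6 (SE 0.14, adjusted p = 1.84e-05). COX6C is a small membrane subunit that spans the inner membrane.

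COX4I1 and COX6A1, the isoforms of COX4 and COX6A that most tissues use, rose by less. COX4I1 was at 180.4, 174.4 and 193.2 CPM in BEFs, 206.0, 193.5 and 205.1 at day 3 and 251.0, 223.3 and 260.3 at day 6, and its log2 fold change was 0.14 at day 3 (SE 0.09, adjusted p = 0.212) and 0.42 at day 6 (SE 0.09, adjusted p = 0.00169). COX6A1 was at 105.1, 99.5 and 102.6 CPM in BEFs, 127.6, 118.7 and 126.3 at day 3 and 133.1, 140.4 and 158.8 at day 6, with log2 fold changes of 0.28 (SE 0.09, adjusted p = 0.0225) and 0.49 (SE 0.09, adjusted p = 0.000547). For both genes the 3 day 6 samples were the highest. EMC8, which overlaps COX4I1 in the annotation, had log2 fold changes of -0.33 and -0.35, the opposite direction. COX5A, a matrix subunit chosen after its values were seen, was at a log2 fold change of 0.63 at day 6 (SE 0.12, adjusted p = 0.000556). The day 3 call of COX6A1 was lost in 4 leave-outs, with an adjusted p up to 0.0923 (without BEFs replicate 2).

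NDUFA4 and its paralogue NDUFA4L2 both fell, to very different extents. NDUFA4 was first assigned to complex I and is now known as a subunit of complex IV, and NDUFA4L2 is a paralogue known to be induced in low oxygen. NDUFA4L2 was at 90.9, 83.5 and 77.5 CPM in BEFs, 6.11, 1.17 and 3.45 at day 3 and 0.692, 0.686 and 1.25 at day 6. These levels rest on 1744 to 2001 counts per BEFs sample, 24 to 115 per CiADCs-3d sample and 15 to 23 per CiADCs-6d sample. The BEFs samples were far above all others, and the gene was 23.7-fold lower at day 3 (log2 fold change -4.57, SE 0.37, adjusted p = 4.76e-07) and 97.1-fold lower at day 6 (-6.60, SE 0.43, adjusted p = 6.52e-08). NDUFA4 was at 57.0, 53.9 and 50.1 CPM in BEFs, 40.6, 34.6 and 39.7 at day 3 and 29.7, 34.5 and 32.4 at day 6. It was also below BEFs in every CiADCs sample, with log2 fold changes of -0.49 (SE 0.11, adjusted p = 0.00167) and -0.74 (SE 0.11, adjusted p = 5.75e-05). Per length, NDUFA4L2 made up 47.4% ± 0.439 of the summed FPKM of both genes in BEFs, 4.89% ± 3.04 at day 3 and 1.54% ± 0.554 at day 6 (SD, n = 3). SHMT2, which overlaps NDUFA4L2 in the annotation, had log2 fold changes of -1.01 at day 3 and -0.28 at day 6.

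**Figure D3:**
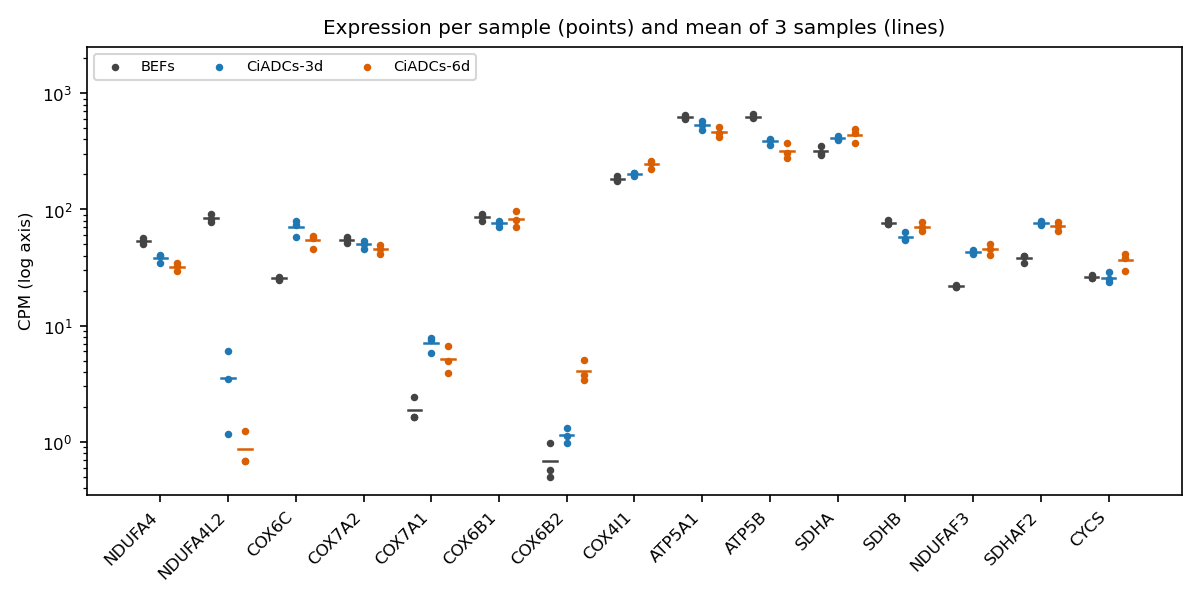
CPM on a log axis is shown for 15 members, with 1 point per sample in grey for BEFs, blue for CiADCs-3d and orange for CiADCs-6d, and lines at the means of 3 samples. NDUFA4L2 drops from a mean of 84.0 CPM to 3.58 and 0.874, while COX7A1 and COX6C lie higher in all CiADCs samples than in BEFs.

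COX7A1, the isoform of COX7A found in heart, skeletal muscle and brown fat, was low and rose. It was at 2.42, 1.63 and 1.64 CPM in BEFs, 5.85, 7.87 and 7.54 at day 3 and 6.64, 3.94 and 4.98 at day 6, without overlap between BEFs and CiADCs. Its log2 fold change was 1.90 at day 3 (SE 0.25, adjusted p = 3.91e-05) and 1.45 at day 6 (SE 0.26, adjusted p = 0.00029). The widely expressed isoform COX7A2 was at 51.6 to 57.8 CPM in BEFs, 45.7 to 53.5 at day 3 and 41.8 to 49.0 at day 6 (log2 fold change -0.14, adjusted p = 0.269, and -0.28, adjusted p = 0.0308). Its day 6 call was lost in 4 leave-outs, with an adjusted p up to 0.1 (without BEFs replicate 3). Per length, COX7A1 took 4.24% ± 0.949 of the FPKM of both isoforms in BEFs, 15.3% ± 1.07 at day 3 and 12.7% ± 2.03 at day 6 (SD, n = 3), so COX7A2 remained the more abundant isoform in each group. The 9 skeletal muscle markers, of which MYH1, MYH2 and MYOG were at 0 in every sample, summed to 6.13 to 7.64 CPM in BEFs, 1.22 to 4.22 at day 3 and 1.57 to 2.86 at day 6. These sums are low, and only 2 of the 9 genes were tested. By edgeR, 2 were lower than in BEFs at day 3 (29.1% of all tested genes). At day 6, 1 was lower (31.9% of all tested genes) and 1 not called. Between the days 1 was higher (14.4% of all tested genes). A part of muscle cells in the level of COX7A1 was not tested.

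COX6B2, known as the testis isoform of COX6B, rose at day 6 from a very low level. It was at 0.979, 0.501 and 0.578 CPM in BEFs, 1.33, 1.12 and 0.979 at day 3 and 3.41, 3.80 and 5.09 at day 6. The day 6 samples were above all others, and the log2 fold change against BEFs was 0.73 at day 3 (SE 0.34, adjusted p = 0.082) and 2.58 at day 6 (SE 0.31, adjusted p = 1.47e-05). FAM71E2, which overlaps COX6B2 in the annotation, had log2 fold changes of 0.00 at day 3 and 2.51 at day 6, so at day 6 the pair moved alike and the reads cannot be assigned to COX6B2 with certainty. COX6B1, the general isoform, was at 79.8 to 91.6, 70.1 to 80.1 and 70.0 to 96.1 CPM in the 3 groups and passed no test (log2 fold changes -0.19 and -0.07). COX6B2 reached 3.68% ± 0.504 of the FPKM of the pair at day 6, from 0.609% ± 0.217 in BEFs (SD, n = 3).

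Other muscle, lung or testis isoforms of complex IV were at or near 0. COX6A2, COX8B and COX8C had no count in any sample, against a limit of 3 counts per sample that corresponds to 0.125 to 0.162 CPM over the 9 samples, counting error only. COX4I2 had 1 count in each of 2 CiADCs-6d samples and COX7B2 at most 2 counts in a sample. COX8A, the general isoform of COX8, was at 90.7 to 96.3, 86.2 to 89.1 and 92.5 to 113.1 CPM in the 3 groups (log2 fold changes -0.08 and 0.16, not called). COX7A2L, known for its part in joining complexes III and IV, had a log2 fold change of -0.01 at day 6, with a 95% interval of -0.24 to 0.22, and COX7B, another small subunit, had log2 fold changes of 0.14 and 0.12.

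**Figure D4:**
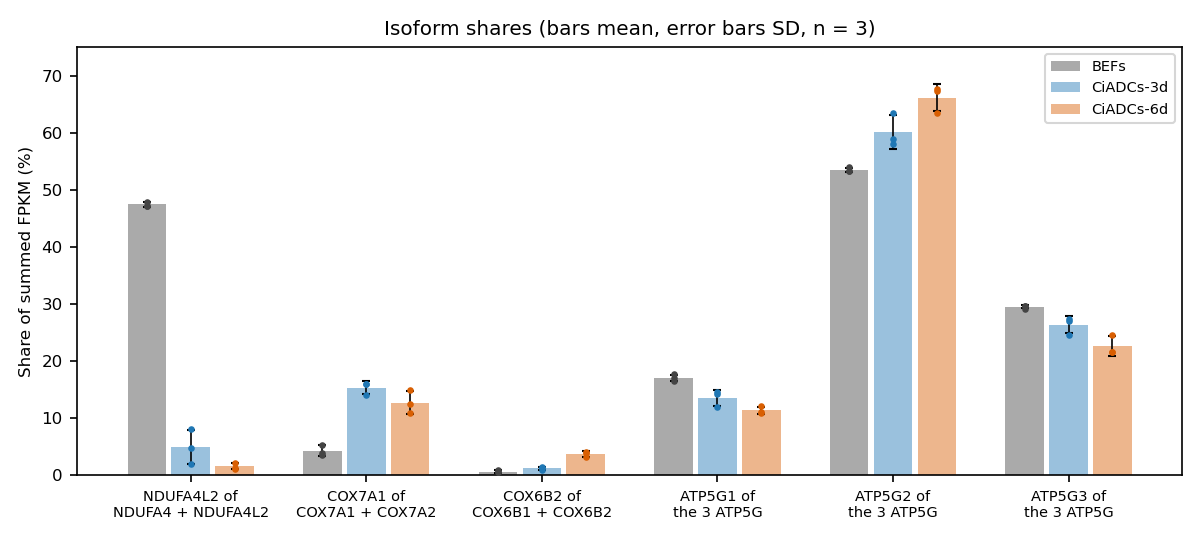
Bars give the mean share, in percent, of each gene in the summed FPKM of its isoform group, with error bars of 1 SD (n = 3) and points for samples, in BEFs (grey), CiADCs-3d (blue) and CiADCs-6d (orange). The share of NDUFA4L2 falls from 47.4% to 1.54%, that of COX7A1 rises from 4.24% to 12.7%, and that of ATP5G2 rises from 53.5% to 66.1%.

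In complex V, the ATP synthase, the calls among subunits were in 1 direction. Of its 15 tested subunit genes, 3 were lower at day 3 (20%, beside 29.1% of all tested genes) and 8 at day 6 (53.3%, beside 31.9%), and none was higher at either day. The number lower at day 6 was 5 without CiADCs-6d replicate 3. Its median log2 fold change was -0.14 at day 3 and -0.27 at day 6. Summed over the subunit genes, complex V was at 2212, 2134 and 2279 CPM in BEFs, 1700, 1842 and 1849 at day 3 and 1744, 1507 and 1621 at day 6, and the CiADCs sums were all below the BEFs sums. Most of this fall came from ATP5B and ATP5A1, whose levels follow. Of the 15 subunit genes, 12 were not called at day 3 and 7 at day 6, so the sums do not show a fall of every subunit. Under total-count scaling 6 members of complex V were lower at day 6, and under upper-quartile scaling 8.

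ATP5B (ATP5F1B), the catalytic beta subunit, was the member with the highest FPKM in BEFs. It was at 618.9, 610.4 and 657.2 CPM in BEFs, 356.7, 403.5 and 399.9 at day 3 and 376.3, 278.7 and 304.2 at day 6. ATP5A1 (ATP5F1A), the alpha subunit that alternates with it in the catalytic head, was at 616.9, 597.9 and 647.3 CPM in BEFs, 481.4, 572.9 and 538.2 at day 3 and 516.8, 421.5 and 456.5 at day 6. Both genes were below BEFs in every CiADCs sample, and ATP5B fell further. The log2 fold change of ATP5B was -0.70 at day 3 (SE 0.12, adjusted p = 0.000257) and -0.98 at day 6 (SE 0.12, adjusted p = 1.36e-05), and that of ATP5A1 was -0.23 (SE 0.11, adjusted p = 0.0855) and -0.42 (SE 0.11, adjusted p = 0.00406). The ratio of the FPKM of ATP5B to that of ATP5A1, whose proteins are built in equal number into the enzyme, was 1.07, 1.09 and 1.08 in BEFs, 0.788, 0.749 and 0.791 at day 3 and 0.775, 0.703 and 0.709 at day 6. The ratio separated BEFs from all CiADCs samples, and the difference in ratio was not tested. The remaining subunits of the head, ATP5C1, ATP5D and ATP5E, had log2 fold changes between -0.20 and 0.12 and passed no test, ATP5C1 and ATP5E being chosen after their values were seen.

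ATP5G1, ATP5G2 and ATP5G3 (ATP5MC1, ATP5MC2 and ATP5MC3) all encode subunit c of the proton-driven ring, with different import sequences and the same mature protein. ATP5G1 was at 43.2, 42.7 and 45.6 CPM in BEFs, 27.2, 32.5 and 36.6 at day 3 and 30.0, 21.2 and 25.3 at day 6. ATP5G3 was at 72.1 to 81.2, 56.8 to 70.1 and 42.4 to 61.9 CPM, and ATP5G2 at 165.2 to 183.5, 173.5 to 181.2 and 153.9 to 191.3 CPM. The first of these lay below BEFs in every CiADCs sample, as did ATP5G3, whereas ATP5G2 overlapped between the groups. Log2 fold changes at day 3 and day 6 were -0.45 (adjusted p = 0.0154) and -0.78 (adjusted p = 0.000368) for ATP5G1, -0.28 (adjusted p = 0.086) and -0.58 (adjusted p = 0.00223) for ATP5G3, and 0.01 and 0.01 (adjusted p = 0.912 and 0.923) for ATP5G2. The share of ATP5G2 in the FPKM of the 3 genes was 53.5% ± 0.352, 60.1% ± 2.94 and 66.1% ± 2.39 (SD, n = 3). The day 3 call of ATP5G1 was lost without BEFs replicate 3 (adjusted p = 0.0512) or CiADCs-3d replicate 1 (0.075).

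Of the stalk and membrane subunits, chosen after their values were seen except ATP5J2, ATP5O (ATP5PO), which fixes the head to the peripheral stalk, was at 82.5 to 86.3 CPM in BEFs, 61.3 to 69.4 at day 3 and 54.9 to 59.8 at day 6, without overlap between any of the groups. Its log2 fold change was -0.34 at day 3 (SE 0.09, adjusted p = 0.00592) and -0.55 at day 6 (SE 0.09, adjusted p = 0.000172). ATP5J2 (ATP5MF), a membrane subunit, was at -0.46 on the log2 scale at day 6 (adjusted p = 0.02), ATP5F1 (ATP5PB), of the peripheral stalk, at -0.27 (adjusted p = 0.0405) and ATP5L (ATP5MG), a membrane subunit at the dimer contact, at -0.24 (adjusted p = 0.0426). Each of these 3 calls was lost in some of the leave-outs, with adjusted p up to 0.0769 for ATP5J2 (without CiADCs-6d replicate 2), 0.127 for ATP5F1 (without BEFs replicate 1) and 0.128 for ATP5L (without BEFs replicate 3). ATP5S (DMAC2L), a coupling factor, moved the other way, from 3.55 to 4.24 CPM in BEFs to 4.56 to 6.80 at day 3 and 5.45 to 7.79 at day 6. Its log2 fold change was 0.61 at day 3 (SE 0.21, adjusted p = 0.0238) and 0.82 at day 6 (SE 0.21, adjusted p = 0.00387), the day 3 call being lost in 4 leave-outs with an adjusted p up to 0.0776 (without BEFs replicate 2). ATPIF1, the inhibitor of the ATP synthase, which is no member by symbol, was at 22.5 to 25.6 CPM in BEFs, 21.9 to 25.3 at day 3 and 18.2 to 19.0 at day 6.

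Compared per length, the order of the members changed at the top. In BEFs the highest mean FPKM values were 350.3 for ATP5B, 325.0 for ATP5A1, 231.0 for COX4I1 and 204.2 for ATP5L. In CiADCs-6d they were 317.5 for COX4I1, 264.1 for COX6A1, 249.8 for ATP5A1 and 219.1 for ATP5G2. ATP5B reached a mean of 182.7 FPKM at day 6. NDUFB1, of the complex I membrane arm and chosen after its values were seen, was at 1.71, 1.97 and 1.69 FPKM, with 6 to 16 counts per sample. The 95% interval of its log2 fold change at day 6 ran from -1.19 to 1.07, so a smaller difference was not detectable at this depth. The 10 extra loci took 0.520% of the members' counts in BEFs, 0.292% at day 3 and 0.386% at day 6, 4 of them were tested, and of these the CYCS locus alone was called. The 11 members that were not tested were the other 6 extra loci and the 5 complex IV isoforms at or near 0.

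Between day 3 and day 6, 6 of the 97 members were higher and 6 lower (6.19% each, beside 14.4% and 13.6% of all tested genes), and 1 of each also passed 2-fold (4.09% and 3.22% of all tested genes). The day 6 samples were all above the day 3 samples for 10 members and all below for 12 (19.1% and 18% of all tested genes), and the 95% interval lay within 2-fold for 91 members (93.8%, beside 70.5% of all tested genes). The higher members were COX6B2 (log2 fold change 1.84, SE 0.30, adjusted p = 0.00132), CYCS, COX5A, UQCR10, UQCRH and COX4I1, and the lower members included NDUFA4L2 (-2.04, SE 0.49, adjusted p = 0.00999), NDUFS1 (-0.46, SE 0.09, adjusted p = 0.00477), NDUFC2, NDUFV3 and COX7C, the last chosen after its values were seen. Of the named members, COX6B2, NDUFA4L2, NDUFS1 and NDUFV3 kept their calls when any single library was left out, although the CPM of NDUFA4L2 overlapped between the days. The count of lower members rested on the libraries numbered 1. It was 23 without CiADCs-6d replicate 1, where 20.7% of all tested genes were lower. Without CiADCs-3d replicate 1 it was 17, where 17.6% of all tested genes were lower. Without both it was 29, when 10 members were higher and 26% of all tested genes were lower and 22.8% higher. The share of all tested genes that were lower thus rose in these settings as well, from 13.6%. The count of lower members was 3 without CiADCs-3d replicate 3 or CiADCs-6d replicate 3 (7.7% and 7.58% of all tested genes). The count of higher members was 1 without either of these (8.29% and 7.07%) and 3 without CiADCs-3d replicate 2 (9.56%). Without both libraries numbered 1, complex I had 1 member higher and 16 lower at day 6 against day 3, complex II 2 and 0, complex III 4 and 2, complex IV 3 and 5, and complex V 0 and 6. Counts against BEFs moved less when both were left out, to 17 higher and 20 lower at day 3 and 19 higher and 32 lower at day 6.

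Regulators of mitochondrial biogenesis, a list of 27 genes of which 25 were tested, held calls in both directions. At day 3, 6 were higher and 5 lower (24% and 20%, beside 30.9% and 29.1% of all tested genes), with a median log2 fold change of 0.17, and at day 6, 12 were higher and 3 lower (48% and 12%, beside 35.6% and 31.9%), with a median of 0.12. Between the days 9 were higher (36%, beside 14.4%) and none lower by edgeR (median 0.32). That count of 9 was 3 without CiADCs-6d replicate 3 and 5 without CiADCs-3d replicate 2, CiADCs-3d replicate 3 or CiADCs-6d replicate 2. PPARGC1A (PGC-1alpha), the coactivator that drives mitochondrial genes in brown fat and muscle, was at 0.606, 0.0834 and 0.267 CPM in BEFs, 0.903, 1.41 and 1.15 at day 3 and 1.71, 2.06 and 2.0 at day 6, and rose by log2 fold changes of 1.87 (SE 0.50, adjusted p = 0.00626) and 2.6 (SE 0.48, adjusted p = 0.000429). Its levels were low in each group, with no overlap between BEFs and CiADCs. It passed the filter on low counts only through the CiADCs samples. ESRRA, a nuclear receptor that works with it, was at 25.1 ± 2.94, 31.5 ± 5.68 and 42.5 ± 5.39 CPM (SD, n = 3), with a log2 fold change of 0.76 at day 6 (adjusted p = 0.000645). NRIP1, a corepressor of such receptors, went from 25.2 ± 0.245 CPM to 159.0 ± 17.3 and 164.1 ± 8.73 (log2 fold changes 2.66 and 2.70, adjusted p = 1.29e-09 and 9.56e-10).

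Of the DNA-binding factors of respiratory genes, NRF1 was lower, with log2 fold changes of -0.71 (adjusted p = 0.00116) and -0.39 (adjusted p = 0.0306), and GABPB1, the partner subunit of GABPA, was lower as well, at -1.12 (adjusted p = 0.000103) and -0.59 (adjusted p = 0.00631). GABPA itself did not pass the test (0.23 and 0.04). PPRC1, a relative of PPARGC1A, was at 70.4 ± 3.75, 38.2 ± 1.32 and 74.9 ± 8.82 CPM (SD, n = 3), lower at day 3 by a log2 fold change of -0.88 (adjusted p = 1.63e-05) and back near the BEFs level at day 6 (0.09, adjusted p = 0.463). Among the genes that copy and transcribe mitochondrial DNA, POLRMT (the RNA polymerase) was higher at day 6 by 0.80 (adjusted p = 0.000114), TFB2M by 0.78 (adjusted p = 0.00716), TFB1M by 0.49 (adjusted p = 0.00589), POLG by 0.31 (adjusted p = 0.0139), POLG2 by 0.66 (adjusted p = 0.0014), PEO1 (the Twinkle helicase) by 0.74 (adjusted p = 8.66e-05), MTERF2 by 1.72 (adjusted p = 1.83e-05) and MTERF3 by 0.50 (adjusted p = 0.0186). SSBP1, the single-strand binding protein, was lower (-0.37 and -0.68, adjusted p = 0.0223 and 0.000455), and TFAM, which packages mitochondrial DNA, had values of -0.23 and -0.24 that did not pass. MYC was higher at both days (0.88 and 1.79, adjusted p = 0.00143 and 4.17e-06), MTERF4 at day 3 (0.42, adjusted p = 0.0151), and CHCHD2, which acts at the COX4I2 promoter, was lower at day 3 (-0.49, adjusted p = 0.00214). MTERF2 and PEO1 were also higher at day 3 (1.14 and 0.49, adjusted p = 0.000669 and 0.00246). The 9 genes higher at day 6 than at day 3 were PPRC1 (0.97, adjusted p = 0.000161), MYC (0.91), POLG2 (0.62), GABPB1 (0.53), POLRMT (0.52), POLG (0.46), ESRRA (0.43), CHCHD2 (0.36) and YY1 (0.31), and the lowest value was that of MTERF4 (-0.37, adjusted p = 0.0549).

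Assembly factors outside the symbol rule numbered 44, of which 10 were higher and 7 lower at day 3 (22.7% and 15.9%, beside 30.9% and 29.1% of all tested genes, median log2 fold change 0.13). At day 6, 12 were higher and 10 lower (27.3% and 22.7%, beside 35.6% and 31.9%, median 0.11). COX18, which inserts a complex IV core subunit into the membrane, had the highest value, 2.25 and 2.99 (adjusted p = 9.61e-07 and 6.08e-08). The lowest were ACAD9 at day 3 (-0.87, adjusted p = 0.000183) and TMEM126A at day 6 (-1.34, adjusted p = 1.07e-06), both factors of complex I. Between the days 2 were higher and 4 lower (4.55% and 9.09%, beside 14.4% and 13.6%), the higher numbering 0 to 4 when single libraries were left out, with LYRM2 lowest (-1.10, adjusted p = 0.00614) and PET117 highest at a value that did not pass (0.80, adjusted p = 0.0534).

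Of 19 genes of the tricarboxylic acid cycle and pyruvate entry, which supplies the chain with NADH and succinate, 5 were higher and 5 lower at day 3 (26.3% each, beside 30.9% and 29.1% of all tested genes, median -0.00415). At day 6, 6 were higher and 6 lower (31.6% each, beside 35.6% and 31.9%, median -0.07). The day 3 count of higher genes was 1 without BEFs replicate 1 or BEFs replicate 2, and 3 without BEFs replicate 3 or any CiADCs-3d library. The count of lower genes was 3 without BEFs replicate 3, CiADCs-3d replicate 1 or CiADCs-3d replicate 3. PC, pyruvate carboxylase, had the highest log2 fold change (0.97 and 1.42, adjusted p = 1.42e-05 and 4.08e-07), and the lowest were IDH2 at day 3 (-0.65, adjusted p = 9.39e-05) and PDHB at day 6 (-0.89, adjusted p = 0.000435). Between the days 2 were higher (10.5%, beside 14.4%), IDH2 most (0.65, adjusted p = 0.000845), and 2 lower (10.5%, beside 13.6%, and 0 to 4 when single libraries were left out), PDHB most (-0.51, adjusted p = 0.0371). Of 15 mitochondrial carriers and porins, 4 were higher and 8 lower at day 3 (26.7% and 53.3%, beside 30.9% and 29.1% of all tested genes, median -0.29). At day 6, 6 were higher and 8 lower (40% and 53.3%, beside 35.6% and 31.9%, median -0.32). SLC25A10, the dicarboxylate carrier, was highest (1.95 and 1.84, adjusted p = 1.87e-07 and 2.39e-07), and MPC1, of the pyruvate carrier, at day 3 (-0.92, adjusted p = 4.72e-05) and SLC25A12, the aspartate-glutamate carrier, at day 6 (-1.24, adjusted p = 5.2e-06) were lowest. Between the days 3 carriers were higher, with SLC25A4, an ADP/ATP carrier, highest (0.73, adjusted p = 0.00112), and 4 lower, with SLC25A12 lowest (-0.74, adjusted p = 0.0025), which are 20% and 26.7% beside 14.4% and 13.6% of all tested genes. With CiADCs-6d replicate 1 left out, 7 carriers were lower between the days, and with CiADCs-6d replicate 3 left out, 2 were.

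The mitochondrial ribosome, which translates the subunits encoded in mitochondrial DNA, had 73 tested genes. At day 3, 9 were higher and 23 lower (12.3% and 31.5%, beside 30.9% and 29.1% of all tested genes, median log2 fold change -0.15). At day 6, 12 were higher and 26 lower (16.4% and 35.6%, beside 35.6% and 31.9%, median -0.18), and between the days 7 were higher and 3 lower (9.59% and 4.11%, beside 14.4% and 13.6%, median -0.04). The higher genes at day 3 numbered 4 without BEFs replicate 2 and 5 without BEFs replicate 1 or CiADCs-3d replicate 2, and the lower genes between the days numbered 12 without CiADCs-6d replicate 1 and 7 without CiADCs-3d replicate 1. MRPS6 was lowest at both days (-1.57 and -2.23, adjusted p = 1.44e-06 and 6.88e-08), MRPL50 was highest at day 3 (0.91, adjusted p = 0.0012) and MRPL57 at day 6 (1.17, adjusted p = 2.99e-06) and between the days (0.63, adjusted p = 0.00278), where MRPS28 was lowest (-0.80, adjusted p = 0.0403). Of 7 thermogenic genes, UCP1, which uncouples the chain in brown fat, had no count in any BEFs or CiADCs-3d sample and was at 0.138, 0.275 and 0.108 CPM at day 6, near the limit of 3 counts. Of these genes 3 were tested, and each was higher at both days, DIO2 (5.00 and 4.06, adjusted p = 8.47e-05 and 0.000422), CIDEA (1.17 and 1.76, adjusted p = 0.0068 and 0.000279) and PPARGC1A, and none passed the test between the days. DIO2 and PPARGC1A passed the filter on low counts only through the CiADCs samples, where they were higher. The count of 3 was thus partly set by the filter and cannot be read against the 30.9% and 35.6% of all tested genes that were higher. DIO2, which makes the active form of thyroid hormone, was at 0.280, 0.125 and 0.400 CPM in BEFs, 4.84, 11.4 and 9.84 at day 3 and 9.50, 2.01 and 2.0 at day 6. The day 6 value rested largely on CiADCs-6d replicate 1. Without that library, the log2 fold change of DIO2 was 2.87 at day 6 against BEFs (adjusted p = 0.000377) and -2.16 between the days (adjusted p = 0.00121), which passed the test. ELOVL3 was at most at 0.0541 CPM.

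The 14 rows of mRNAs encoded in mitochondrial DNA, whose products join the nuclear subunits in complexes I, III, IV and V, summed to 15970 ± 1001 CPM in BEFs, 27180 ± 3484 at day 3 and 16420 ± 2298 at day 6 (SD, n = 3). Of 13 tested, 11 were higher and 1 lower at day 3 by edgeR, where 30.9% and 29.1% of all tested genes were called. At day 6 none was higher and 3 were lower, where 35.6% and 31.9% of all tested genes were called. These 3 were the second MT-CYB row, MT-CO2 and MT-ND4L. Their median log2 fold change was 0.75 at day 3, and the nuclear subunits had medians between -0.14 (complex V) and 0.20 (complex II).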

How the data were processed

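RNA-seq had been carried out on 9 bovine samples, and the authors deposited 1 table with, per gene and sample, an expected count and an FPKM value (fragments scaled to transcript length and library size). RSEM, StringTie (1.3.1), HISAT2 (2.2.4) and fastp (0.18.0) are listed in the submitters' processing notes, whereas the study's methods name TopHat and HTSeq. The labels name a Ribo-Zero kit and the study's methods oligo(dT) enrichment. The genome build and the strand are not given in the sources used here. The deposited expected counts were rounded to whole numbers. Genes needed 10 counts by edgeR's filterByExpr, scaled to library size in at least a group's number of samples, and 15 in total, which left 14020 and removed 7492. TMM scaling and edgeR 4.0.16 (R 4.3.3) quasi-likelihood tests were fitted over the 3 groups together, without the replicate number, with Benjamini-Hochberg adjustment over all 14020 genes. CPM values are TMM-scaled. The deposited FPKM values served for levels between genes, shares within isoform groups and the alternative with limma 3.58.1 on log2(FPKM + 1) or log2(FPKM + 0.1). DESeq2 1.42.0, other scalings and filters, a replicate block and leaving out samples were the other alternatives. Python 3.11.15, pandas 2.3.3 and matplotlib 3.10.9 served for summaries and plots. On simulated data with 200 changed genes, 2-fold changes were recovered in 78% of cases at day 3, 77% at day 6 and 75% between the days, with 5.56%, 4.47% and 5.59% false calls. The simulated counts were drawn independently, whereas in the data 4329 genes were called higher and 4083 lower at day 3. These rates therefore may not hold for the data.

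The members and lists were chosen with earlier results of these data known. Genes named are NDUFA4, UQCRC1, CYCS, the redox core and isoform genes, the highest and lowest member of each complex in each comparison, the highest and lowest gene of each further list and the biogenesis regulators that passed the test. NCBI gene numbers of 106 members were found in the RefSeq table of ARS-UCD2.0, from which overlaps with other genes were taken, 33 members overlapping at least 1 gene. Intervals are at 95%, and the limit that a count of 0 allows is 3 counts; both cover counting error only where they rest on counts of 1 sample. Values of 1 tested member are not reported here, although it is included in the counts, sums and medians.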

Additional observations from a re-analysis of the deposited data

Results flagged for a closer look

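For 11 members described here the effects of day 3 and of day 6 against BEFs differed by the test of the difference itself (CiADCs-6d against CiADCs-3d, edgeR quasi-likelihood test, adjusted over all tested genes). On the log2 scale the difference was 1.84 for COX6B2, 0.49 for CYCS, 0.40 for COX5A, 0.35 for UQCR10, 0.28 for UQCRH and 0.28 for COX4I1. It was -2.04 for NDUFA4L2, -0.46 for NDUFS1, -0.43 for NDUFC2, -0.39 for NDUFV3 and -0.31 for COX7C. When single libraries were left out, the adjusted p passed 0.05 at least once for 7 of the 11, reaching 0.217 for COX4I1 without CiADCs-6d replicate 3, while COX6B2, NDUFA4L2, NDUFS1 and NDUFV3 kept their calls.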

How the results depend on the processing

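The numbers of members called (15 higher and 18 lower at day 3, 19 and 27 at day 6, 6 and 6 between the days) stayed within 1.5 times under DESeq2, relative log expression or total-count scaling, no filter, or a filter of 10 counts in every sample. With a 2-fold change also required, the counts were 2 and 2, 4 and 1, and 1 and 1. Between the days, limma on FPKM with either pseudocount called 10 higher, upper-quartile scaling 11 lower, and a fit of only the groups compared 1 higher and 3 lower. Without both CiADCs libraries numbered 1, 10 were higher and 29 lower. Leaving out each library in turn gave 7 to 18 higher and 12 to 19 lower at day 3, 14 to 19 and 20 to 31 at day 6, and 1 to 5 and 3 to 23 between the days. The sign of the median of complex IV depended on the setting. At day 6 it was 0.03 over all its tested members, -0.01 under upper-quartile scaling or no filter and -0.04 without BEFs replicate 3, and the medians of -0.00322 at day 3 and -0.02 between the days also turned positive under some alternatives, up to 0.08 and 0.00838. The cause of these shifts was not tested. No member changed direction with a call under any of these alternatives.

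With the replicate number as a block, the counts were 12 and 15 at day 3, 18 and 23 at day 6, and 3 and 3 between the days. The correlation of deviations between same-numbered samples ran from -0.37 to 0.15, so the numbers were not taken as a pairing, and not every sample correlated best with its own number.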
